A study of Mus musculus with 30 samples.

Results

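A set of 40 genes of glycolysis and of the response to low oxygen was followed over 30 arrays of a pair of mouse cell lines. The genes were taken by symbol. A gene was read from the transcript cluster annotated with its symbol alone, and from the cluster with the highest mean over all arrays where there were several. In this way 35 of the 40 genes were measured, out of 22184 different symbols on clusters of their own. *Gpi1* and *Eno1* had no cluster listed, and *Aldoa*, *Bnip3l* and *Ankrd37* were found only on clusters that another symbol shared. The values are RMA signals on the log2 scale, so that a step of 1 is a doubling of the signal. They can be compared between groups for the same gene, but not between genes.

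mESCs (line ES-D3) are pluripotent mouse embryonic stem cells, grown with LIF on mitotically arrested fibroblasts and moved to gelatin before transfection. iMOP cells come from the embryonic inner ear of the mouse, where SOX2-positive cells of the otic lineage were immortalised by a pulse of c-Myc. The line is a single clone and grows in suspension with bFGF. Each line was taken untransfected (UT, an unmanipulated culture) or 48 h after transfection with pT (red fluorescent protein, RFP, alone), pAT (Atoh1 and RFP), p183T (the miR-183 family and RFP) or p183AT (both and RFP), all driven by the EF-1 alpha promoter. That gives 10 groups of 3 arrays. The transfection reagent was Lipofectamine for mESCs and jetPRIME for iMOP cells. RFP-positive cells were sorted, mESCs into fresh medium and iMOP cells into lysis buffer, while the labels do not describe the UT cells as sorted. The pT against UT comparison therefore holds transfection, the vector, sorting and, in mESCs, the time off the fibroblasts, which cannot be told apart. The labels call the 3 arrays of a group separate biological samples and say no more of their origin, so the p-values speak only to the spread among these samples, which may be technical.

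Glycolysis splits glucose into pyruvate and yields a little ATP without oxygen. Glucose enters through facilitated transporters, is trapped by hexokinase, is committed by phosphofructokinase, is cleaved by aldolase and ends as pyruvate, which lactate dehydrogenase turns to lactate or which enters mitochondria unless pyruvate dehydrogenase kinase blocks the way. Many of these genes are targets of the hypoxia-inducible factors. The alpha subunits HIF1A and EPAS1 are hydroxylated by the oxygen-dependent prolyl hydroxylases EGLN1 to EGLN3 and then degraded, so that at low oxygen they persist and bind the short hypoxia response element. Pluripotent stem cells are known for a strongly glycolytic metabolism. The array reads RNA, not the HIF proteins, whose control is largely after translation.

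Over all clusters, array medians lay between 4.57 and 4.69 in mESCs and between 4.37 and 4.51 in iMOP cells. The summed signal of 10 pluripotency markers was 11246 to 11927 in UT and 10029 to 10672 in pT mESCs, against 192.0 to 279.2 in UT and pT iMOP cells. Of the otic markers, *Dlx5*, *Eya1* and *Fabp7* were at 8.86, 9.36 and 9.81 in UT iMOP cells, but *Pax2* and *Pax8* were at 3.16 and 3.60 there. Of the 11 otic markers measured, 6 were higher and 4 lower in UT iMOP cells than in UT mESCs (adjusted p under 0.05, limma). Over all clusters 18.3% were higher and 39.2% lower. The summed signal of the otic markers was 2732 to 3154 in UT iMOP cells and 2013 to 2181 in UT mESCs. A group mean under 5 is called dim here, and no detection calls were used. *Adm* and *Car9* were dim in all 10 groups, 28 of the 35 genes in no group, and *Egln3*, *Epas1*, *Slc16a3*, *Pfkfb4* and *P4ha2* in some. *Atoh1* was at 5.83 to 6.19 with pAT and 4.84 to 5.24 with pT in mESCs. In iMOP cells it was at 6.41 to 6.44 and 5.21 to 5.57, without overlap, but the difference did not pass the test (adjusted p under 0.05, limma). The hairpin *Mir96* was at 8.66 to 9.15 with p183T and 3.39 to 3.48 with pT in mESCs, and at 6.92 to 7.67 and 3.53 to 3.72 in iMOP cells.

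The promoters of 6 genes on which the results turn are shown, since the genes of the set are best known as targets of HIF at such sequences. They are the 4 genes with the highest fold change with pT in mESCs, then *Hif1a*, which fell in iMOP cells, and *Pgk1*, which rose in one line and fell in the other. Each runs from 250 bases before to 50 bases after the start of the gene, read along the gene's strand (RefSeq, GRCm38.p6). Capitals mark the core of the hypoxia response element, ACGTG or GCGTG, or its reverse complement. A CACGTG, the E-box of Myc and its relatives, contains ACGTG and is in capitals as well.
*Egln3* (chr12:54203825-54204124, minus strand): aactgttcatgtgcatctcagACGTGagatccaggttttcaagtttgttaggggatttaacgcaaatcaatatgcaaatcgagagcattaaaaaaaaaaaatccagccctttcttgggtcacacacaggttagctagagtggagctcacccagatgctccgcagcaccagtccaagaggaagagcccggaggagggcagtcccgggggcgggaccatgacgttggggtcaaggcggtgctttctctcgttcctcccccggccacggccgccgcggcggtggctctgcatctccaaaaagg
*Bnip3* (chr7:138909457-138909756, minus strand): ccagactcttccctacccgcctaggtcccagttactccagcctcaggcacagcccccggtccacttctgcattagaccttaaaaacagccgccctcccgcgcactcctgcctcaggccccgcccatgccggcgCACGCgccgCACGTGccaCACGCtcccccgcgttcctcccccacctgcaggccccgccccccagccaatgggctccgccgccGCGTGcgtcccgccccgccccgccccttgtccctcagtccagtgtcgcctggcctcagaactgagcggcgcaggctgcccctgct
*Slc16a3* (chr11:120948817-120949116, plus strand): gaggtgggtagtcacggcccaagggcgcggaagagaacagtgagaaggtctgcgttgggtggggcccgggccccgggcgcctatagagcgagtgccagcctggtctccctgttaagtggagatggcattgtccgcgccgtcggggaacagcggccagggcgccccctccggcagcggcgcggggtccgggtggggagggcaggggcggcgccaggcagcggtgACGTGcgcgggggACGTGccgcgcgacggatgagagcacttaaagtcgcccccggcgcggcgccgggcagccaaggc
*P4ha1* (chr10:59323046-59323345, plus strand): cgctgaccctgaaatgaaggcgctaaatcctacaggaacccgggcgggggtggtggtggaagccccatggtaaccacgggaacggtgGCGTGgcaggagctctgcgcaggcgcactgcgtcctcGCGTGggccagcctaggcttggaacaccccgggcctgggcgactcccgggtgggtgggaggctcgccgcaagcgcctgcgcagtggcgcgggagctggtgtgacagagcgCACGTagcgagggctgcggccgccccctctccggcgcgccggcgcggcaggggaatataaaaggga
*Hif1a* (chr12:73907617-73907916, plus strand): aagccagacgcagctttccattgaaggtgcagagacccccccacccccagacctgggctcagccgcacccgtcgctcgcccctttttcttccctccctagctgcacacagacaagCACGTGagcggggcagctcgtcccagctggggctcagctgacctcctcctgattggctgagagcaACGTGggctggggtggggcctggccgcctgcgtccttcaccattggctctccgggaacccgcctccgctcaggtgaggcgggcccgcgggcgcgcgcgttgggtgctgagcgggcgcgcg
*Pgk1* (chrX:106186850-106187149, plus strand): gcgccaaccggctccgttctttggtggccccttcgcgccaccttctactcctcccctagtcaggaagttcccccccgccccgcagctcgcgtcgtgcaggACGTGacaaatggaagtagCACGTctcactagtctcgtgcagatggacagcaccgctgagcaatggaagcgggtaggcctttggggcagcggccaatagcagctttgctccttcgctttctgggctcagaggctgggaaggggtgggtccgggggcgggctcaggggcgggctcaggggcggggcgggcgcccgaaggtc
The 5-base core was found once in the *Egln3* window and 5 times, over both strands, in that of *Bnip3*, where the CACGTG counts on each strand. *P4ha1* and *Hif1a* had 3 matches each, and *Slc16a3* and *Pgk1* had 2.

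RefSeq windows were found for 36 of the 40 genes, 52 windows in all since some genes have several starts. *Slc2a3*, *Epas1*, *Bnip3l* and *Ndrg1* were not among them. ACGTG or GCGTG on either strand was present for 33 of the 36 genes, in 41 of the 52 windows (78.8%), against 43.8% of 32851 windows of all genes. ACGTG alone was in 53.8% of the windows of the set and 19.6% of all windows, and GCGTG in 57.7% and 32.4%. CACGTG was in 11.5% and 7.15%. CAGCTG, an E-box of the kind that Atoh1 binds, was in 13.5% and 16.3%. These are descriptions of letters in a window. In the 250 bases before the start alone, ACGTG or GCGTG was again present for 33 genes.

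The first comparison asked how pT cells differed from UT cells in mESCs. Oxygen-responsive genes and glycolytic genes were higher with pT: 19 of the 35 genes rose and 1 fell, whereas over all 25341 clusters 7.07% rose and 6.07% fell (13.1% called; adjusted p under 0.05, limma, fit of the 15 mESC arrays). The median log2 fold change of the set was 0.44 and that of all clusters -0.02. In 27 genes all 3 pT arrays lay above all 3 UT arrays, against 15.7% of all clusters. With dim clusters left out (11294 kept, with a log2 signal of at least 6 on at least 3 arrays), 17 of the 30 genes kept rose and 1 fell, beside 16.6% and 6.74% of the clusters kept, and the medians were 0.52 and 0.06. The median was 0.83 over the 13 genes of HIF, its hydroxylases and its hypoxia targets and 0.39 over the 22 transporters and enzymes. The fold changes of all 35 genes are drawn by role in the plot of pT against UT.

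**Figure D1:**
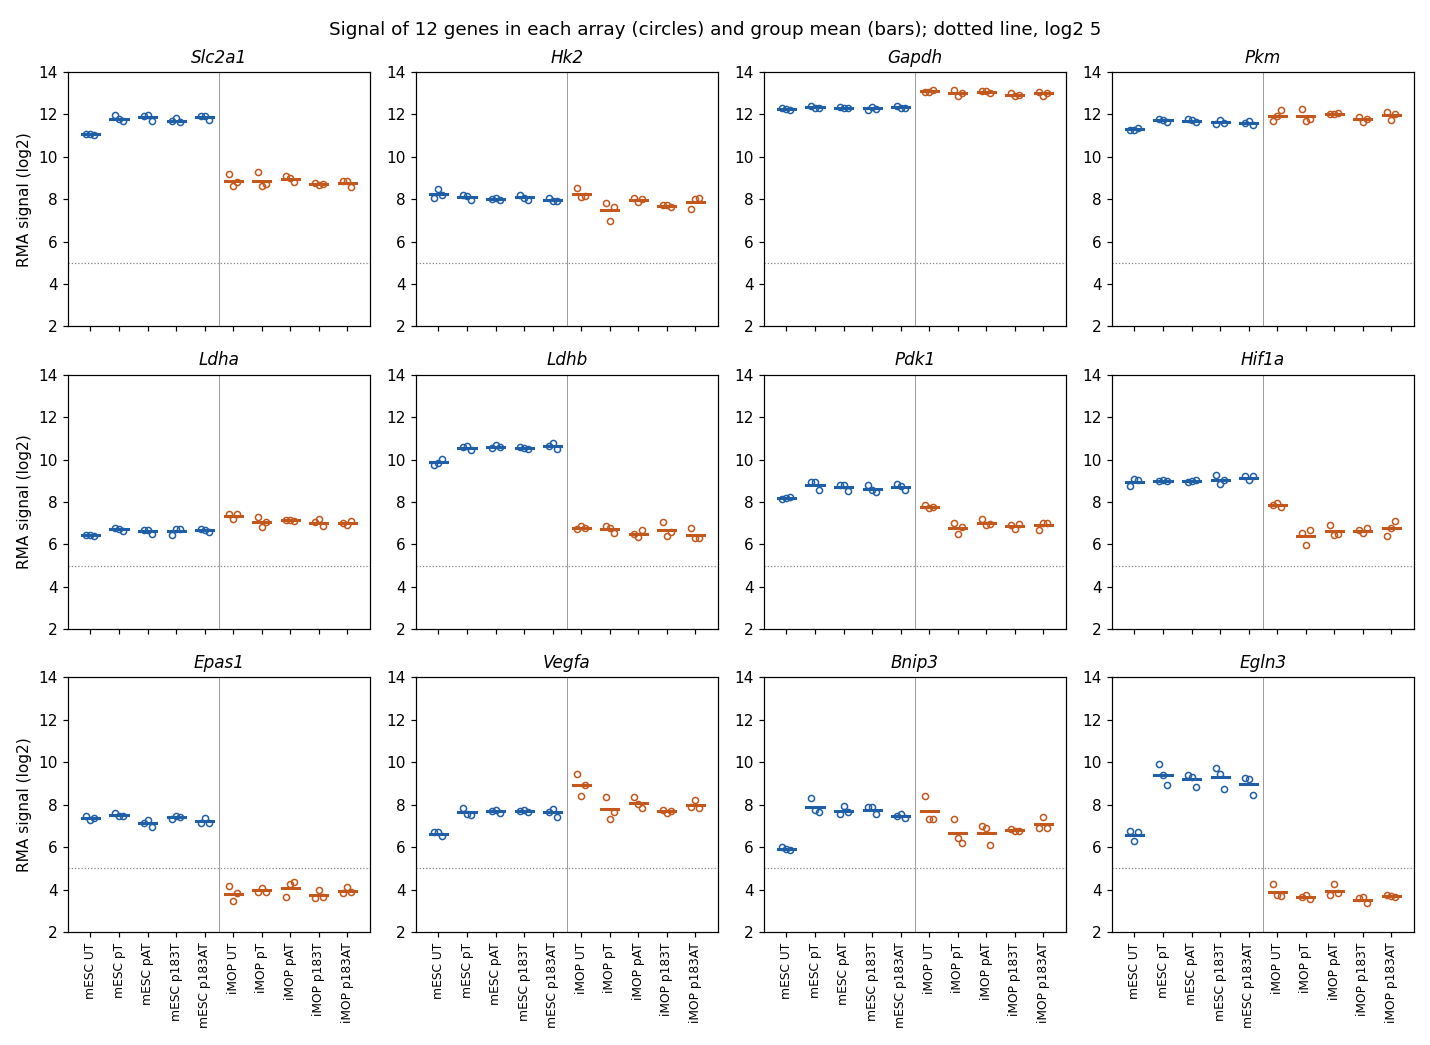
RMA signal (log2, vertical axis) of 12 genes in each of the 10 groups (horizontal axis, mESC in blue and iMOP in orange). Circles are arrays, bars are group means of 3 arrays and the dotted line is log2 5. *Egln3*, *Bnip3* and *Vegfa* step up between UT and every transfected group in mESCs, *Hif1a* and *Pdk1* step down in iMOP cells, and *Gapdh* stays between 12.22 and 12.39 in mESCs and between 12.87 and 13.16 in iMOP cells.

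*Egln3* encodes the prolyl hydroxylase that is itself the most inducible of the family. Its signal was 6.75, 6.27 and 6.73 in the UT mESCs and 9.90, 9.41 and 8.94 in the pT mESCs. The groups were far apart, with a log2 fold change of 2.84 (SE 0.29, adjusted p = 7.4e-06, limma), or 7.15-fold. *Egln1*, the hydroxylase that sets HIF levels in most cells, went from 6.15, 6.47 and 6.49 to 7.58, 7.52 and 7.10 (log2 fold change 1.03, SE 0.16, adjusted p = 0.00030, limma). The lowest pT array of *Egln1* was above the highest UT array.

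The HIF subunits themselves did not pass the test. *Hif1a* was at 8.77, 9.09 and 9.02 in UT and 8.98, 9.02 and 9.01 in pT mESCs, and the groups overlapped (log2 fold change 0.04, SE 0.12, adjusted p = 0.88, limma). Its other cluster, dim with a mean of 4.49, moved by 0.58 (adjusted p = 0.036, limma). *Epas1*, which encodes HIF2 alpha, was at 7.45, 7.29 and 7.35 in UT and 7.60, 7.46 and 7.49 in pT mESCs (log2 fold change 0.15, SE 0.12, adjusted p = 0.46, limma).

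Among the targets, *Bnip3*, a mitochondrial protein that promotes mitophagy, was at 5.995, 5.93 and 5.88 in UT and 8.33, 7.75 and 7.65 in pT mESCs. The log2 fold change was 1.98 (SE 0.16, adjusted p = 1.3e-06, limma), or 3.94-fold, and no array overlapped. *P4ha1*, a subunit of collagen prolyl 4-hydroxylase, went from 5.89, 6.23 and 6.21 to 7.60, 7.49 and 7.15 (log2 fold change 1.30, SE 0.18, adjusted p = 0.00011, limma). Its paralogue *P4ha2* rose by 0.95, from a UT mean of 4.77 that is dim. *Vegfa*, the growth factor of blood vessels, was at 6.70, 6.70 and 6.52 and then at 7.83, 7.57 and 7.51 (log2 fold change 0.9975, SE 0.12, adjusted p = 3.7e-05, limma). *Ndrg1* rose by 0.64, a call lost without pT replicate 1 (0.51, adjusted p = 0.057, limma), and its other, dim cluster had 0.20. *Adm*, adrenomedullin, rose by 0.83 between means that are both dim, and the call was lost in 5 of the 6 fits that left out an array. *Car9*, carbonic anhydrase 9 and a marker of hypoxia in tumours, stayed dim (0.16, adjusted p = 0.48, limma), as did its other cluster (0.19). *Higd1a* had 0.17.

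*Kdm3a*, a histone demethylase induced by HIF in other cells, was the only gene of the set that was lower. It was at 8.73, 8.99 and 8.94 in UT and 8.36, 8.32 and 8.36 in pT mESCs (log2 fold change -0.54, SE 0.14, adjusted p = 0.015, limma). The call was lost without UT replicate 2, UT replicate 3 or pT replicate 2 (adjusted p = 0.050 to 0.060, limma) and in 1 fit of all 30 arrays, and its adjusted p over all alternatives was 0.0058 to 0.12.

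Of the 22 transporters and enzymes, 11 were higher with pT in mESCs and none was lower, beside 7.07% and 6.07% of all clusters. The lactate exporter *Slc16a3* (MCT4) changed most. Its signal was 6.40, 6.52 and 6.48 in UT and 8.10, 7.81 and 7.54 in pT mESCs (log2 fold change 1.35, SE 0.13, adjusted p = 6.0e-06, limma). For *Slc2a1* (GLUT1), the basal glucose transporter, the values were 11.07, 11.09 and 11.03 and then 11.96, 11.76 and 11.67 (log2 fold change 0.73, SE 0.11, adjusted p = 0.00028, limma). Its other cluster, with a mean of 4.98, gave 0.37 (adjusted p = 0.33, limma). *Slc2a3* (GLUT3), a transporter of high affinity, was at 10.74, 10.81 and 10.68 and then at 11.16, 11.06 and 11.06, a rise of 0.35 whose call was lost in 5 of the 6 fits that left out an array. The other monocarboxylate carrier, *Slc16a1* (MCT1), had 0.30 (adjusted p = 0.11, limma), although its groups did not overlap.

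Neither hexokinase passed the test. *Hk1* had 0.18, and *Hk2* was at 8.07, 8.50 and 8.20 in UT and 8.19, 8.16 and 7.96 in pT mESCs (-0.16, SE 0.12, adjusted p = 0.47, limma). Phosphofructokinase, the committing step, differed by isoform. The liver form *Pfkl* was at 8.55, 8.84 and 8.84 in UT and 9.95, 9.75 and 9.49 in pT mESCs (log2 fold change 0.99, SE 0.13, adjusted p = 7.8e-05, limma). The muscle form *Pfkm* rose by 0.70, while the platelet form *Pfkp* had 0.38 and did not pass the test (adjusted p = 0.11, limma). The bifunctional enzymes that set the level of its activator had 0.44 for *Pfkfb3* (adjusted p = 0.063, limma) and -0.02 for *Pfkfb4*.

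Further down the pathway, *Aldoc*, the brain form of aldolase, was at 6.83, 6.86 and 6.50 in UT and 7.93, 7.61 and 7.60 in pT mESCs (log2 fold change 0.99, SE 0.14, adjusted p = 0.00019, limma). Phosphoglycerate kinase, *Pgk1*, rose by 0.81 and triosephosphate isomerase, *Tpi1*, by 0.76. *Pkm*, pyruvate kinase, went from 11.26, 11.26 and 11.38 to 11.79, 11.73 and 11.61 (log2 fold change 0.41, SE 0.10, adjusted p = 0.012, limma), and its call was lost without pT replicate 1 (0.37, adjusted p = 0.061, limma). *Gapdh* was at 12.29, 12.25 and 12.23 and then at 12.39, 12.31 and 12.31, and did not pass the test (0.08, SE 0.09, adjusted p = 0.65, limma). The neuronal enolase *Eno2* had 0.26. *Pgam1*, phosphoglycerate mutase, had 0.07 on its brightest cluster and 1.02 on its other cluster (adjusted p = 0.0038, limma), whose mean was 8.69, so the clusters of this gene disagreed. The cluster that *Aldoa* shares with *Aldoart1* had 0.51 (adjusted p = 0.028, limma). Several of these enzymes have processed copies in the genome, with which their probes can share signal.

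At the branch of pyruvate, *Ldhb*, the lactate dehydrogenase subunit of oxidative tissues, was at 9.75, 9.85 and 10.03 in UT and 10.59, 10.62 and 10.44 in pT mESCs (log2 fold change 0.67, SE 0.11, adjusted p = 0.00048, limma). *Ldha*, the subunit that HIF induces, was at 6.46, 6.43 and 6.40 and then at 6.77, 6.71 and 6.63. These groups did not overlap, but the difference did not pass the test (0.28, SE 0.11, adjusted p = 0.12, limma). *Pdk1*, the kinase that closes pyruvate dehydrogenase, was at 8.14, 8.16 and 8.23 and then at 8.93, 8.95 and 8.57 (log2 fold change 0.64, SE 0.13, adjusted p = 0.0041, limma). Its other cluster was dim (mean 3.39) and had 0.26. *Pdk3* had 0.14.

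The step was shared by all transfected mESCs. In 19 genes all 12 transfected arrays lay above all 3 UT arrays, and in *Kdm3a* all lay below, whereas this held for 7.46% and 5.95% of all clusters. *Egln3* ran from 8.46 to 9.90 over the 12 transfected arrays, with a median of 9.30, against 6.27 to 6.75 in UT mESCs. *Bnip3* ran from 7.37 to 8.33 (median 7.65) against 5.88 to 5.995. *Slc16a1* and *Pfkfb3*, which did not pass the test with pT, were among the 19, and *Slc2a3* and *Adm*, which did, were not. Within the pT group replicate 1 was the highest array for 10 of the 13 HIF and hypoxia genes measured. Without it 16 genes of the set were called, and 16 to 18 over all 6 fits with an array left out.

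Markers of fibroblasts, the feeder cells of the mESC cultures, were read in the same comparison. Of these 12 markers 1 rose and 1 fell, beside 7.07% and 6.07% of all clusters. The summed signal of 12 fibroblast markers was 396.3 to 419.5 in UT and 350.0 to 358.3 in pT mESCs, and 7 of the 12 were dim in both groups. *Fbln2* was lower with pT (-1.06) and *Pdgfrb* higher (0.70), and 10 of the 12 did not pass the test. Of the 10 pluripotency markers, *Nanog* (-0.44), *Zfp42* (-0.63) and *Nr0b1* (-1.04) were lower with pT and *Utf1* was higher (0.45). The other 6 did not pass the test. The summed signal of the pluripotency markers did not overlap between the groups. The part of either list in the result was not tested. In bulk RNA, fewer cells of a type and less RNA per cell cannot be told apart.

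In iMOP cells more genes of the set were lower than higher with pT. In all 2 of the 35 genes rose and 11 fell, beside 19.4% and 21.9% of all clusters (41.3% called; limma, fit of the 15 iMOP arrays). The median log2 fold change of the set was -0.08 and that of all clusters 0.09. The share of the set that was called, 13 genes, was thus not above that of all clusters. With dim clusters left out, 3 of 30 genes rose and 11 (36.7%) fell, beside 22.6% and 41.3% of the clusters kept, with medians of -0.27 and -0.19. The share that fell was therefore no higher than among all clusters of such signal. Without UT replicate 1 the count was 7, and it was 7 to 13 over the 6 fits with an array left out. That array was the highest of its group for 10 of the 13 HIF and hypoxia genes.

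*Kdm3a* fell furthest. It was at 8.89, 8.23 and 7.89 in UT and 7.07, 6.13 and 6.68 in pT iMOP cells (log2 fold change -1.71, SE 0.26, adjusted p = 4.7e-05, limma), or 3.27-fold lower. *Hif1a* was at 7.84, 7.94 and 7.75 in UT and 6.54, 5.97 and 6.69 in pT iMOP cells (log2 fold change -1.44, SE 0.20, adjusted p = 1.7e-05, limma). The UT arrays of *Hif1a* were tight and the pT arrays all lower by over a step of 1. Its other, dim cluster had -0.30 (adjusted p = 0.17, limma). *Epas1* was dim, at 4.15, 3.44 and 3.82 in UT and 3.91, 4.06 and 3.91 in pT iMOP cells, and *Egln3* was dim as well, at 4.25, 3.74 and 3.72 and then 3.64, 3.73 and 3.54. Neither passed the test. *Egln1* was at 8.84, 8.39 and 8.30 and then at 8.40, 7.90 and 8.19 (-0.35, SE 0.18, adjusted p = 0.13, limma).

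*Vegfa* was at 9.44, 8.42 and 8.92 in UT and 8.35, 7.34 and 7.65 in pT iMOP cells (log2 fold change -1.14, SE 0.24, adjusted p = 0.00098, limma). *Bnip3* was at 8.43, 7.33 and 7.33 and then at 7.34, 6.45 and 6.19 (-1.03, SE 0.30, adjusted p = 0.010, limma). For *Bnip3* the groups overlapped by a single array, and the call was lost without UT replicate 1 (-0.67, adjusted p = 0.084, limma) or pT replicate 3 (-0.80, adjusted p = 0.062, limma), within a range of 0.0011 to 0.21 over its alternatives. The cluster of the related mitophagy receptor *Bnip3l*, shared with a pseudogene, had -1.41 (adjusted p = 0.00022, limma) in iMOP cells and 0.44 (adjusted p = 0.035, limma) in mESCs. *P4ha1* was at 9.22, 8.60 and 8.52 and then at 8.25, 7.40 and 7.78 (-0.97, SE 0.21, adjusted p = 0.0011, limma). *Ndrg1* and *P4ha2* both had 0.05, *Higd1a* had 0.44, *Adm* 0.34 and *Car9* 0.28, and none of these 5 passed the test.

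Of the 22 transporters and enzymes, 2 rose (9.09%) and 6 fell (27.3%) in iMOP cells, beside 19.4% and 21.9% of all clusters. Among the clusters kept without dim ones the shares were 22.6% and 41.3%, so the falls of this group were not above background. *Pdk1* was at 7.85, 7.71 and 7.76 in UT and 6.99, 6.51 and 6.81 in pT iMOP cells (log2 fold change -1.003, SE 0.15, adjusted p = 3.5e-05, limma), while its other, dim cluster had -0.52 (adjusted p = 0.083, limma). *Hk2*, the inducible hexokinase, was at 8.50, 8.08 and 8.17 and then at 7.82, 6.97 and 7.64 (-0.77, SE 0.19, adjusted p = 0.0033, limma). *Slc16a1* fell by 0.71, with no overlap. *Slc2a3* fell by 0.93, from 6.99, 5.96 and 5.74 to 5.80, 5.04 and 5.04, and its call was lost without UT replicate 1 (-0.56, adjusted p = 0.15, limma), pT replicate 2 or pT replicate 3. *Pfkp* (-0.57) and *Pgk1* (-0.50) fell, calls lost in 4 and in 5 of the 6 fits with an array left out.

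*Pfkl* was at 8.14, 8.38 and 8.39 in UT and 9.01, 8.71 and 8.61 in pT iMOP cells (log2 fold change 0.47, SE 0.15, adjusted p = 0.015, limma). *Slc16a3* was at 4.19, 4.31 and 4.37 and then at 4.74, 4.90 and 4.59, dim in both groups (0.45, SE 0.17, adjusted p = 0.038, limma). Both rises were lost when certain arrays were left out, that of *Pfkl* without UT replicate 1 or pT replicate 1 and that of *Slc16a3* in 5 of 6 fits. *Slc2a1* was at 9.18, 8.60 and 8.81 and then at 9.27, 8.61 and 8.71 (log2 fold change -0.00, SE 0.18), although its other cluster, near the dim limit, had 0.67 (adjusted p = 0.0016, limma). *Gapdh* was at 13.03, 13.05 and 13.16 and then at 13.13, 12.87 and 13.005 (-0.08), *Pkm* at 11.68, 11.91 and 12.19 and then at 12.24, 11.69 and 11.78 (-0.02), and *Ldhb* at 6.71, 6.87 and 6.78 and then at 6.86, 6.78 and 6.53 (-0.06). *Ldha* was at 7.45, 7.19 and 7.42 and then at 7.31, 6.82 and 7.06 (-0.29, SE 0.14, adjusted p = 0.11, limma). *Pgam1* again disagreed between its clusters, with 0.07 and 0.81 (adjusted p = 0.0048, limma).

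Over all 12 transfected iMOP arrays, 10 genes of the set lay below all 3 UT arrays and 1, *Pfkl*, above them, beside 19.6% and 15.1% of all clusters. *Hif1a* ran from 5.97 to 7.08 (median 6.60) against 7.75 to 7.94 in UT iMOP cells, and *Pdk1* from 6.51 to 7.21 (median 6.94) against 7.71 to 7.85. *Kdm3a* ran from 6.13 to 7.43 (median 7.05) against 7.89 to 8.89. *Pdk3*, which did not pass the test with pT, was also among the 10. Markers of the otic lineage moved in the same comparison. Of 11, *Fabp7* (-1.34), *Jag1* (-1.10), *Sox2* (-0.92) and *Eya1* (-0.80) were lower with pT and *Dlx5* (1.03), *Pax2* (0.65) and *Gata3* (0.43) higher, and their summed signal was 2732 to 3154 in UT and 2014 to 2953 in pT iMOP cells. Of the 10 pluripotency markers 3 were higher and none lower, beside 19.4% and 21.9% of all clusters. Of these markers 9 were dim in UT and 7 in pT iMOP cells, so their calls rest largely on values near background. The part of either list of markers in the result was not tested.

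**Figure D2:**
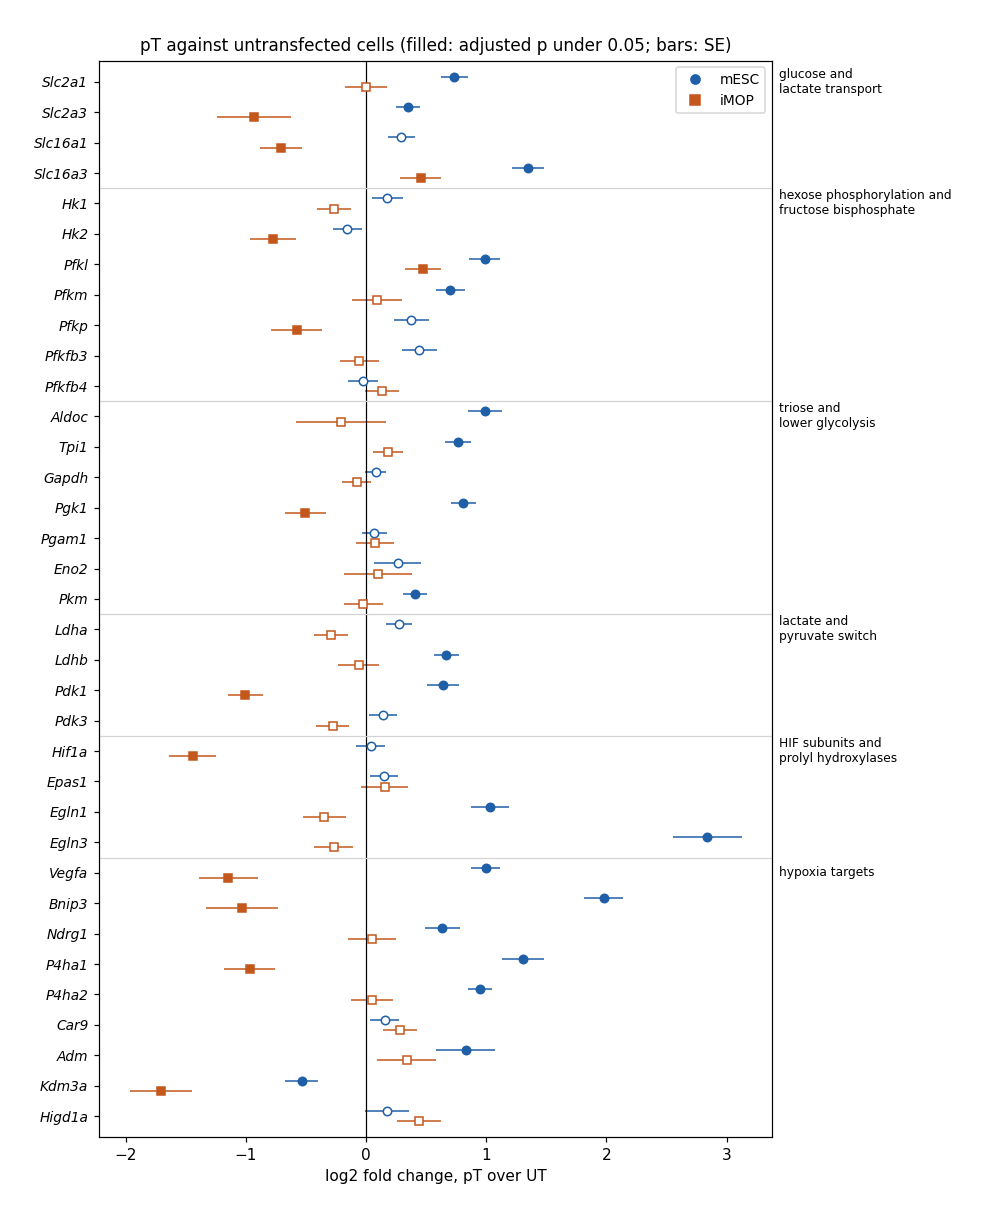
Log2 fold change of pT over UT (horizontal axis) for the 35 measured genes, grouped by role (vertical axis), in mESCs (circles) and iMOP cells (squares). Bars are SE from limma and filled symbols have an adjusted p under 0.05. In mESCs 19 filled circles lie right of 0 and 1 left, and in iMOP cells 2 filled squares lie right and 11 left.

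The difference between these responses came from a single model of the 30 arrays, as the response of iMOP cells minus that of mESCs. At an adjusted p under 0.05 (limma) it was called below 0 for 21 of the 35 genes and above 0 for none. Over all clusters 20% were called below 0 and 15.6% above 0 (35.6% called). The median over the set was -0.62 and over all clusters 0.12. Without dim clusters it was called below 0 for 24 of 30 genes and above 0 for none, beside 41.8% and 17.1% of the clusters kept. The median of all clusters then turned to -0.31, and that of the set was -0.73. The largest differences were -3.11 for *Egln3* (SE 0.34, adjusted p = 1.8e-07, limma), -3.01 for *Bnip3* (SE 0.37, adjusted p = 8.9e-07, limma), -2.27 for *P4ha1* and -2.14 for *Vegfa*. *Pdk1* had -1.64, *Hif1a* -1.48, *Egln1* -1.38 and *Pgk1* -1.31. *Slc2a1* had -0.74, but its other cluster gave 0.30 (adjusted p = 0.40, limma). *Epas1* (0.00), *Pgam1* (0.01) and *Gapdh* (-0.16) were near 0. The calls of *Hk2*, *Pfkl* and *Aldoc* were lost in 6 to 7 of the 12 fits with an array left out, and that of *Ldha* without iMOP pT replicate 2.

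By the calls in each line, 6 genes rose in mESCs and fell in iMOP cells, namely *Bnip3*, *P4ha1*, *Pdk1*, *Pgk1*, *Slc2a3* and *Vegfa*. *Pfkl* and *Slc16a3* rose in both lines and *Kdm3a* fell in both. A further 11 genes rose in mESCs and were not called in iMOP cells. In turn 4 fell in iMOP cells and were not called in mESCs, and 11 were called in neither. Shares of all clusters for these pairs of calls are not given, so these counts cannot be set against a background. In the single comparisons 7.07% of all clusters rose in mESCs (13.1% called) and 21.9% fell in iMOP cells (41.3% called, whatever the call in mESCs). The calls of *Slc2a3* in both lines and of *Bnip3* and *Pgk1* in iMOP cells were lost with certain arrays left out.

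Line against line, the comparison of UT cultures asked which isoforms and sensors each line uses. In all 12 genes were higher and 14 lower in UT iMOP cells than in UT mESCs, beside 18.3% and 39.2% of all clusters (57.5% called; limma, fit of the 6 arrays). The share of 26 in 35 is to be read against that background. The median difference was -0.15 over the set and -0.20 over all clusters. The split depends on the scaling: after quantile normalization of all 30 arrays 15 were higher and 10 lower, and the median of all clusters moved to 0.01, with 7104 clusters higher and 6901 lower. Without dim clusters 10 of 30 genes were higher and 14 lower, beside 25.9% and 48.9% of the clusters kept.

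Of the 4 transporters 3 were lower in UT iMOP cells, beside 39.2% of all clusters and 48.9% of those kept without dim clusters. *Slc2a3* was at 10.74 ± 0.07 in UT mESCs and 6.23 ± 0.66 in UT iMOP cells (SD, n = 3 each), a log2 difference of -4.51 (SE 0.26, adjusted p = 1.6e-07, limma), or 22.8-fold. *Slc2a1* differed by -2.20 (SE 0.15, adjusted p = 6.3e-07, limma), although its other cluster gave -0.11 (adjusted p = 0.54, limma). *Slc16a3* differed by -2.17 and was dim in iMOP cells, and *Slc16a1* by -0.15 (adjusted p = 0.33, limma).

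The subunits of lactate dehydrogenase went opposite ways. *Ldhb* was at 9.88 ± 0.14 in mESCs and 6.79 ± 0.08 in iMOP cells (SD, n = 3 each; log2 difference -3.09, SE 0.13, adjusted p = 1.1e-08, limma), and *Ldha* at 6.43 ± 0.03 and 7.35 ± 0.14 (SD, n = 3 each; 0.92, SE 0.12, adjusted p = 8.6e-05, limma). *Aldoc* was higher in iMOP cells by 3.15 (SE 0.13, adjusted p = 1.4e-08, limma), at 9.88, 9.89 and 9.85 against 6.83, 6.86 and 6.50. *Gapdh* was higher by 0.82, *Pkm* by 0.63, *Pfkfb3* by 0.58, *Hk1* by 0.53 and *Tpi1* by 0.44. *Pfkp* (-1.29), *Pgam1* (-0.82), *Pdk3* (-0.65), *Pfkl* (-0.44) and *Pfkfb4* (-0.37) were lower. *Hk2*, *Pgk1*, *Pfkm* and *Eno2* did not pass the test, with differences between -0.01 and 0.37. *Pdk1* was lower on its main cluster (-0.40) and higher by 1.998 on its dim one (adjusted p = 1.1e-06, limma).

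Within the oxygen-sensing module, *Epas1* was at 7.36 ± 0.08 in UT mESCs and 3.80 ± 0.35, dim, in UT iMOP cells (SD, n = 3 each; log2 difference -3.56, SE 0.17, adjusted p = 3.7e-08, limma). *Egln3* differed by -2.68 and was dim in iMOP cells, so that the size of both differences rests on values near background. *Hif1a* differed by -1.12 (SE 0.13, adjusted p = 3.5e-05, limma), with -0.21 on its dim cluster. *Egln1* was higher in UT iMOP cells by 2.14 (SE 0.17, adjusted p = 1.5e-06, limma). Of the targets, *P4ha1* was higher by 2.67, *Vegfa* by 2.29, *Bnip3* by 1.76 and *P4ha2* by 0.67, and *Ndrg1* was lower (-0.72).

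Among pT cells 23 genes differed between the lines. Of these 4 were higher and 19 lower in pT iMOP cells than in pT mESCs, beside 21.8% and 36.3% of all clusters (58.1% called), with a median of -0.77 against -0.10. When dim clusters were left out 4 of 30 genes were higher and 18 (60%) lower, beside 19.1% and 58.6% of the clusters kept, with medians of -1.01 and -0.67, so that the share lower was close to that of all clusters of such signal. After quantile normalization 7 were higher and 16 lower. *Slc2a3* differed by -5.80 (SE 0.21, adjusted p = 4.3e-08, limma) and *Egln3* by -5.78 (SE 0.22, adjusted p = 6.6e-08, limma). *Ldhb* had -3.82, *Epas1* -3.56, *Slc16a3* -3.07, *Slc2a1* -2.93, *Hif1a* -2.60 and *Pdk1* -2.05. *Egln3*, *Epas1* and *Slc16a3* were dim in pT iMOP cells, so that the size of their differences rests on values near background. On the other clusters *Slc2a1* had 0.19 (adjusted p = 0.49, limma) and *Pdk1* 1.22 (adjusted p = 0.0024, limma). The 4 higher genes were *Aldoc* (1.95), *Egln1* (0.76), *Gapdh* (0.67) and *Higd1a* (0.49), the last with overlapping groups.

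*Bnip3* was the only gene called in opposite directions, higher in iMOP cells among UT cultures and lower among pT cells (-1.25, SE 0.29, adjusted p = 0.0049, limma). The call among pT cells was lost with quantile normalization of all 30 arrays and with the methods' test, adjusted. The difference stayed below 0 over the alternatives, from -1.59 to -0.62, so the direction held but the crossover as a call depends on the scaling. *Vegfa* and *P4ha1* were higher in UT iMOP cells but did not pass the test among pT cells, where they differed by 0.14 and 0.40. The differences of *Egln1* (from 2.14 to 0.76) and *Aldoc* (from 3.15 to 1.95) were smaller among pT cells. In all 13 genes were lower in iMOP cells in both comparisons and 3 higher in both. A further 8 were higher before and not called with pT, and 5 not called before and lower with pT. Shares of all clusters for these pairs of calls are not given, so the 13 cannot be set against a background. In the single comparisons 39.2% (UT) and 36.3% (pT) of all clusters were lower, and 48.9% and 58.6% without dim clusters.

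**Figure D3:**
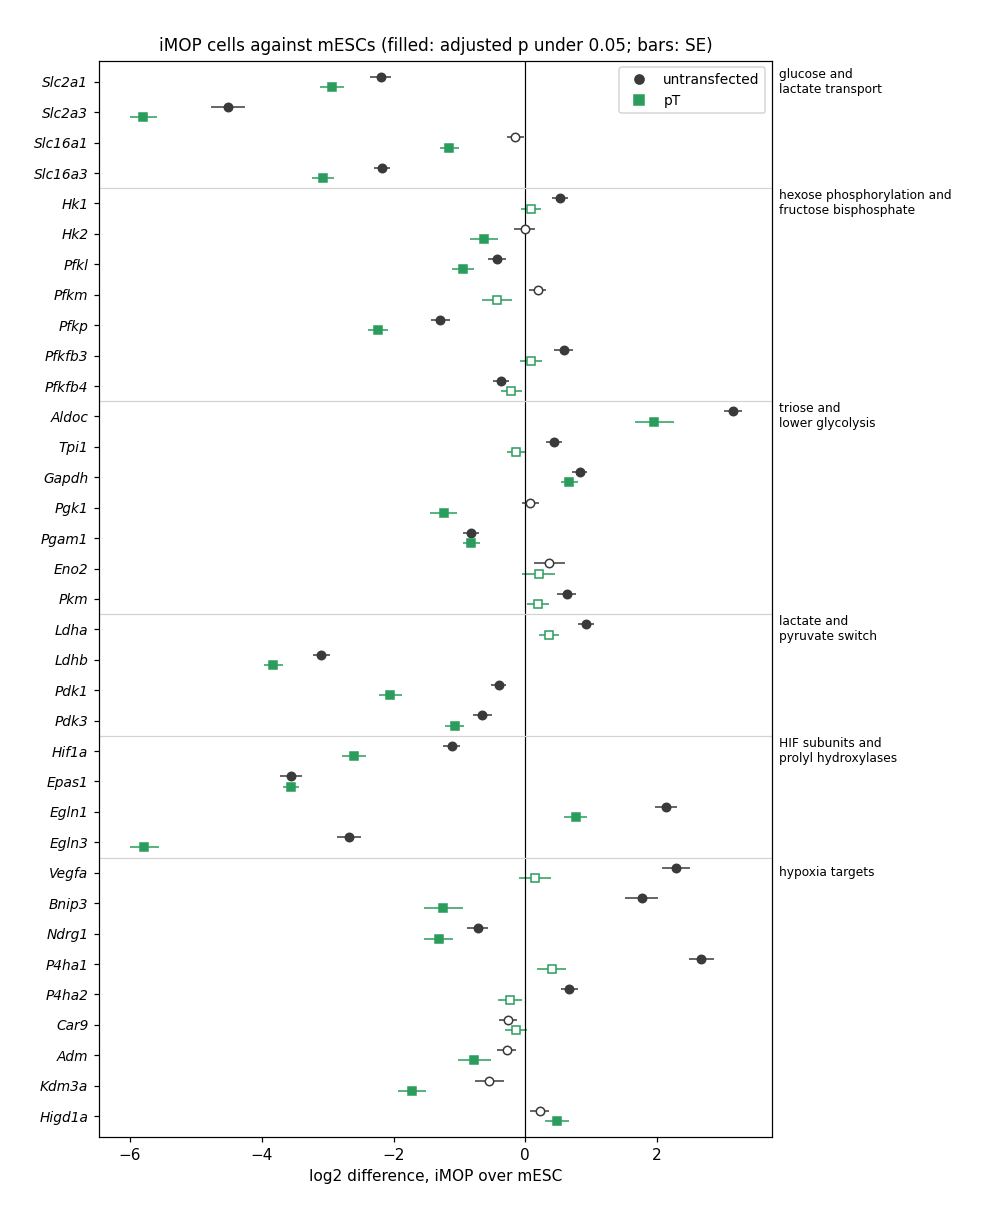
Log2 difference of iMOP cells over mESCs (horizontal axis) for the 35 measured genes, grouped by role (vertical axis), among UT cultures (circles) and pT cells (squares). Bars are SE from limma and filled symbols have an adjusted p under 0.05. *P4ha1*, *Vegfa* and *Bnip3* lie right of 0 among UT cultures, and of these *Bnip3* lies left of 0 among pT cells.

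The vectors that carry Atoh1 or the miR-183 family were set against pT to ask whether their cargo moves the set. No gene of the set passed the test in pAT, p183T or p183AT against pT or in p183AT against pAT, in either line. Over all clusters the share called was small as well, 0.797%, 0.0118%, 1.05% and 0.0118% in mESCs and 0.0197%, 0.0118%, 0.138% and 0.0118% in iMOP cells (limma). At an unadjusted p under 0.05, 3, 0, 5 and 0 of the 35 genes were counted in mESCs, beside 8.33%, 2.33%, 11% and 4.87% of all clusters, and 3, 0, 0 and 0 in iMOP cells, beside 6.69%, 3.87%, 6.42% and 3.99%. Set medians lay between -0.08 and 0.00 in mESCs and between -0.09 and 0.06 in iMOP cells. These comparisons share the pT or pAT arrays. In iMOP cells none of the 4 vector genes, *Atoh1* among them, passed the test with pAT against pT. The test thus missed *Atoh1* itself there, and a lack of calls with pAT does not show a lack of effect. Differences between the lines in the responses to pAT, p183T and p183AT were called for none of the 35 genes either, beside 0.312%, 0% and 0.32% of all clusters, with 4, 0 and 3 genes at an unadjusted p under 0.05, beside 7.49%, 2.9% and 8.16% of all clusters.

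*Aldoc* stood lowest among the 35 genes with pAT in both lines. In mESCs it was at 7.93, 7.61 and 7.60 with pT, 7.05 to 7.31 with pAT, 7.32 to 7.58 with p183T and 6.94 to 7.32 with p183AT. The mean of the vectors with Atoh1 (pAT and p183AT) minus the mean of those without (pT and p183T) was -0.40 (SE 0.10, adjusted p = 0.045, limma, beside 2.9% of all clusters called and 1.13% lower), the only gene of the set called there. That call was lost in 1 fit of all 30 arrays, in a fit of only the compared arrays and in 11 of the 12 fits with an array left out, and its adjusted p over the alternatives was 0.018 to 0.45. In iMOP cells *Aldoc* was at 10.46, 9.19 and 9.35 with pT, 8.55 to 8.86 with pAT, 9.25 to 10.55 with p183T and 8.38 to 10.004 with p183AT, and the same contrast was -0.83 (SE 0.26, adjusted p = 0.26, limma), not called, beside 0.331% of all clusters. It was called with a replicate block (adjusted p = 0.044, limma) and without p183AT replicate 1 (-1.08, adjusted p = 0.036, limma), and its adjusted p over the alternatives was 0.036 to 0.52. The difference between the lines in the response of *Aldoc* to pAT was -0.42 (SE 0.44, adjusted p = 0.91, limma).

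**Figure D4:**
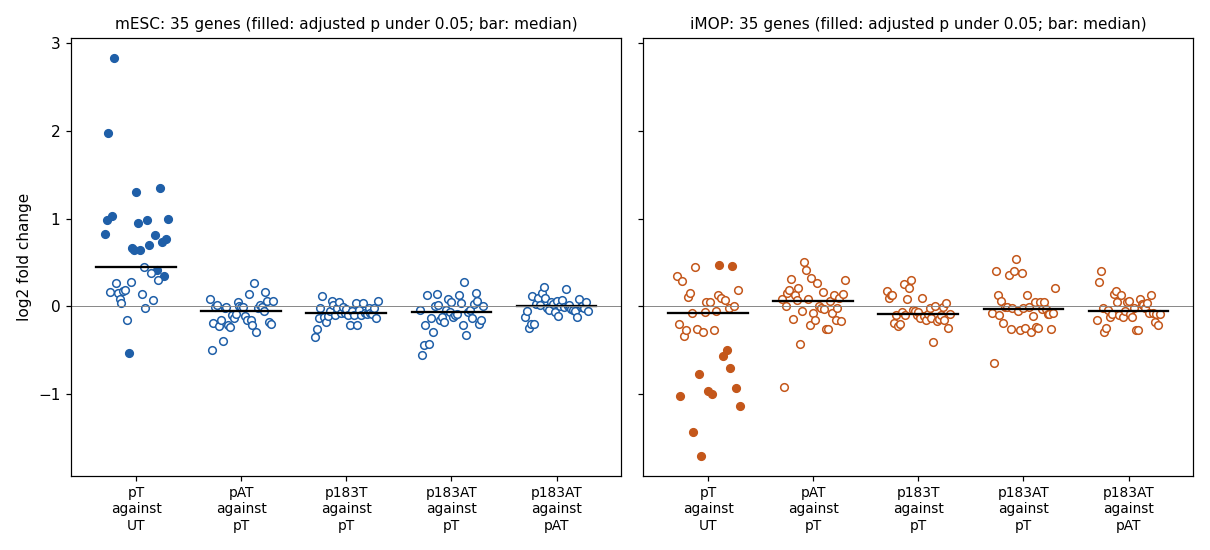
Log2 fold changes of the 35 measured genes (vertical axis) in 5 comparisons (horizontal axis) in mESCs (left) and iMOP cells (right). Each circle is a gene, filled at an adjusted p under 0.05, and the bar is the median. Filled circles appear only in pT against UT, 20 in mESCs and 13 in iMOP cells.

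The other genes of these pathways were read from lists of further glycolytic, pyruvate, pentose phosphate and HIF genes, of which 120 were measured. With pT in mESCs 22 rose (18.3%) and 4 fell (3.33%), beside 7.07% and 6.07% of all clusters. Of 43 further HIF targets 15 rose (34.9%) and 2 fell (4.65%). With dim clusters left out 23 of 86 rose (26.7%), beside 16.6% of the clusters kept. *Ddit4*, an inhibitor of mTORC1, rose by 2.24 (SE 0.36, adjusted p = 0.00048, limma), *Ndufa4l2*, a mitochondrial protein induced by HIF1A, by 1.65, and the carbonic anhydrase *Car12* by 1.38. *Lox*, which crosslinks collagen, fell (-1.57, SE 0.11, adjusted p = 4.5e-07, limma), as did the transferrin receptor *Tfrc* (-0.77) and *Tigar*, a fructose bisphosphatase induced by p53 (-0.56). Of 26 further glycolytic genes 2 rose and 2 fell (7.69% each), close to the shares of all clusters.

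In pT iMOP cells 25 of the 120 rose (20.8%) and 36 fell (30%), beside 19.4% and 21.9% of all clusters. Without dim clusters 22.1% and 40.7% of 86 did, beside 22.6% and 41.3% of the clusters kept. *Wsb1* fell (log2 fold change -1.90, SE 0.20, adjusted p = 2.2e-06, limma), as did the endoplasmic reticulum oxidase *Ero1l* (-1.73) and the cyclin *Ccng2* (-1.53). *Pgls*, an enzyme of the pentose phosphate pathway, rose by 1.497, the prolyl hydroxylase *Egln2* by 1.11 and the glucose transporter family member *Slc2a6* by 0.98. The response differed between the lines for 54 of the 120, lower in iMOP cells for 40 (33.3%) and higher for 14 (11.7%), beside 20% and 15.6% of all clusters. The shares without dim clusters were 44.2% and 10.5% of 86, beside 41.8% and 17.1%. The differences were led by *Ccng2* (-2.46), *Plod2* (-2.41) and *Gbe1* (-2.40) on one side and by *Lox* (1.89), *Pgls* (1.56) and *Egln2* (0.99) on the other. Between UT lines 34 were higher (28.3%) and 63 lower (52.5%) in iMOP cells, beside 18.3% and 39.2% of all clusters, a split over all clusters that depends on the scaling as given above. *Stc1*, stanniocalcin 1, was higher by 4.15, *Vldlr* by 2.46 and *Ddit4* by 2.30, and *Galm*, the galactose mutarotase (-4.52), the muscle enolase *Eno3* (-3.75) and *Pdk4* (-3.18) were lower.

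Among pT cells 21 of the 120 were higher (17.5%) and 61 lower (50.8%) in iMOP cells, beside 21.8% and 36.3% of all clusters. Without dim clusters 16.3% and 53.5% of 86 were, beside 19.1% and 58.6%. Among them were *Stc1* at 2.64, *Fbp2* at 1.64 and *Bpgm* at 1.62 on one side and *Galm* at -4.64, *Eno3* at -3.42 and *Pdk4* at -3.17 on the other. Of the 120 genes, *Stc2*, stanniocalcin 2, was the one called with single vectors. In mESCs it was higher with pAT (0.64, SE 0.12, adjusted p = 0.013, limma) and with p183AT (0.61, SE 0.12, adjusted p = 0.016, limma), which share the pT arrays. In the pooled contrast of mESCs 3 were higher and 4 lower (2.5% and 3.33%, beside 1.77% and 1.13% of all clusters), with *Stc2* at 0.61, the 5′-nucleotidase *Nt5e* at 0.53 and *Slc2a6* at 0.36 on one side and the mitochondrial pyruvate carrier subunit *Mpc1* at -0.62, *Galm* at -0.45 and *Eno3* at -0.40 on the other. None of the 120 was called in iMOP cells with any vector.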

How the data were processed

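Mouse Gene 2.0 ST arrays of 30 samples were summarised by the authors with RMA in Affymetrix Expression Console (version 1.4.1.46), and the deposited values are log2 signals for 41345 transcript clusters. No source used here says which arrays were normalised together. Of these clusters 25341 carried a gene symbol and were tested, 23525 of them with 1 symbol. Comparisons used limma 3.58.1 in R 4.3.3 with Benjamini-Hochberg adjustment over the 25341 clusters at 0.05, from a fit of the 15 arrays of a line, of the arrays compared for line against line, and of all 30 arrays for line differences. Fold changes are on the log2 scale. The scripts were tested on simulated data. The number of arrays, 3 per group, limits the precision.

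The members and lists were chosen with earlier results of these data known. All 40 members could be named, values per array were given for 12 fixed genes and for the 4 highest and 4 lowest in a comparison, and for the pathway lists up to 3 called genes in each direction. *Aldoc*, *Slc2a3*, *Egln1*, *Pfkl* and others of these entered by that rule. Replicate numbers are shared by the groups, but 9 of 30 same-numbered pairs in each line had deviations correlated over 0.1 (r from -0.205 to 0.321 in iMOP cells and from -0.191 to 0.287 in mESCs), so the numbers were not taken as pairing. All 3 pairs of pT and p183T in iMOP cells were over 0.1 (0.147 to 0.321), and a replicate block called 0 genes of the set between these groups, as did the fit without it. In mESCs every replicate 3 pair among the transfected groups was over 0.1 (0.141 to 0.287). Pairs with different numbers were not compared, and whether the replicate 3 arrays share an origin was not tested. Alternatives were 1 fit of all arrays, only the compared arrays, a replicate block and dim clusters left out (log2 6 on 3 arrays, 11294 clusters kept). Further ones were quantile normalization, a trended prior, 1 cluster per symbol, other clusters of a gene and each array left out. The last was the one-way ANOVA of the methods (called the methods' test), adjusted or at the thresholds used there. These were a fold of 1.5 and p of 0.05, with a fold of 2 for UT lines and p of 0.06 for p183AT against pAT. The fold of 2 was applied between pT lines as well. The replicate block shared by the lines and limma at those thresholds were chosen after seeing the data. Promoter windows are from RefSeq (GRCm38.p6).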

Additional observations from a re-analysis of the deposited data

Results flagged for a closer look

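For 21 genes the response to pT differed between the lines by the interaction test of limma (iMOP response minus mESC response, log2, adjusted p under 0.05 over all clusters, beside 35.6% of all clusters called). Among transporters the difference was -0.74 for *Slc2a1*, -1.28 for *Slc2a3*, -1.004 for *Slc16a1* and -0.90 for *Slc16a3*. Among enzymes it was -0.62 for *Hk2*, -0.51 for *Pfkl*, -0.95 for *Pfkp*, -1.19 for *Aldoc*, -0.58 for *Tpi1*, -1.31 for *Pgk1*, -0.57 for *Ldha*, -0.73 for *Ldhb* and -1.64 for *Pdk1*. Among the genes of oxygen sensing and its targets it was -1.48 for *Hif1a*, -1.38 for *Egln1*, -3.11 for *Egln3*, -2.14 for *Vegfa*, -3.01 for *Bnip3*, -2.27 for *P4ha1*, -0.90 for *P4ha2* and -1.17 for *Kdm3a*. *Egln3* and *Slc16a3* were dim in iMOP cells, where a further fall could hardly be measured. No group had enough arrays for a test of single outlying arrays.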

How the results depend on the processing

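Of 1675 alternative values of called genes, 1475 kept their direction and call, 195 kept only the direction and 5 reversed. Many settings change only the spread, the prior or the threshold and keep the difference of group means, so that the direction was fixed there. On other clusters of a gene 11 values kept the call, 7 lost it and 4 reversed. With quantile normalization 89 kept it, 14 lost it and 1 reversed. With an array left out 674 kept it and 82 lost it. With each array left out in turn, the count of genes called was 24 to 27 between UT lines, 20 to 25 between pT lines, 16 to 18 for pT against UT in mESCs, 7 to 13 in iMOP cells (7 without UT replicate 1, 9 without pT replicate 2), 17 to 25 for the line difference (17 without iMOP pT replicate 2), and 0 to 1 for the pooled Atoh1 contrast in each line. The methods' test, adjusted, called 11 genes in mESC pT against UT and 3 in iMOP pT against UT. At the thresholds of the methods it called 5 in iMOP pT against UT and 13 between UT lines, as did limma (13), and limma called 1 in iMOP pAT against pT. The mESC pooled contrast called 0 genes in 1 fit of all 30 arrays, 0 with only the compared arrays and 3 without dim clusters. In mESC p183AT against pT 1 gene was called with a replicate block and 1 without dim clusters, and the block gave 1 in the iMOP pooled contrast, 25 in the line difference, and 20 and 13, the same counts as without it, for pT against UT in mESCs and iMOP cells.

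On another cluster of the gene, reversed values were 1.998 for *Pdk1* between UT lines, 1.22 for *Pdk1* and 0.19 for *Slc2a1* between pT lines, 0.67 for *Slc2a1* and 0.49 for *Gapdh* in iMOP pT against UT, and 0.30 for *Slc2a1* in the line difference. With quantile normalization they were 0.072 for *Hk2* between pT lines, and 0.21 for *Slc2a1*, 0.0031 for *Ldha* and 0.21 for *Ldhb* in iMOP pT against UT. With an array left out, small differences that were not called changed sign. *Hif1a* ran from -0.054 to 0.107 in mESC pT against UT, and in iMOP pT against UT the values ran from -0.204 to 0.158 for *Slc2a1*, from -0.191 to 0.106 for *Pkm*, from -0.131 to 0.034 for *Ldhb* and from -0.027 to 0.327 for *Epas1*. The cause of these changes was not tested. Signal near background limits the dim genes.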
